A study of Saccharomyces cerevisiae with 26 samples.

Results

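Of the 7036 genes in the table of counts, 8 were examined here in RNA-Seq and Ribo-Seq libraries of budding yeast. They encode DEAD-box RNA helicases: DHH1 (YDL160C), DED1 (YOR204W), DBP1 (YPL119C), TIF1 (YKR059W), TIF2 (YJL138C), SUB2 (YDL084W), DBP5 (YOR046C) and FAL1 (YDR021W). DHH1 and DED1 were chosen by a measured value, the shift of their ribosome occupancy between strains in these same libraries, so their strain differences are given as a description without a test, and the other members were taken along as relatives. Cells of gir2Δ (gir2::KanMX), pub1Δ (pub1::KanMX) and wt were compared, and all 3 strains were MATalpha BY4742 with the alleles his3delta1, leu2delta0, lys2delta0 and ura3delta0. The deletion strains were made for the study by transforming BY4742 with KanMX cassettes, and all cells were taken in exponential growth in YPD without added drug. RNA-Seq (oligo(dT)-selected mRNA) covered 4 gir2Δ, 5 pub1Δ and 5 wt libraries, and Ribo-Seq (monosome fragments protected from RNase I) covered 4 libraries of each strain.

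DEAD-box proteins are ATP-dependent enzymes that bind RNA and locally unwind it or strip proteins from it, and they take part in every step of the life of an mRNA. Ded1 and its paralog Dbp1 open structure in mRNA leaders during scanning by the small ribosomal subunit, while Tif1 and Tif2 are the 2 copies of the initiation factor eIF4A. Dhh1 represses translation and activates decapping, Sub2 loads export factors on nascent mRNA, Dbp5 remodels mRNA-protein particles at the cytoplasmic face of the nuclear pore, and Fal1 acts in the maturation of small-subunit rRNA.

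The family is named for the residues Asp-Glu-Ala-Asp of the ATP-binding site. The codons of this motif are shown to introduce the members, as 60 bases of each coding strand, 5′ to 3′, from the R64 genome of RefSeq, with the motif in capitals. TIF1 and TIF2 were identical over this stretch, and SUB2 carries the Asp-Glu-Cys-Asp variant.
DHH1, chrIV:171313-171372, minus strand: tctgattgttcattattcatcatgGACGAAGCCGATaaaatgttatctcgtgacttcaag
DED1, chrXV:723802-723861, plus strand: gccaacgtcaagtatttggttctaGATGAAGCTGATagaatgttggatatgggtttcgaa
DBP1, chrXVI:325278-325337, minus strand: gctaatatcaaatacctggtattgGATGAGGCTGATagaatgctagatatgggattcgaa
TIF1, chrXI:555470-555529, plus strand, and TIF2, chrX:154149-154208, minus strand: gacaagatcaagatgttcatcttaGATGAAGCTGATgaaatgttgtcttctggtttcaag
SUB2, chrIV:305855-305914, plus strand: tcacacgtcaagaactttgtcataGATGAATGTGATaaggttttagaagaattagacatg
DBP5, chrXV:415158-415217, minus strand: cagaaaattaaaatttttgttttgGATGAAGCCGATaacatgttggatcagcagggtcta
FAL1, chrIV:487296-487355, plus strand: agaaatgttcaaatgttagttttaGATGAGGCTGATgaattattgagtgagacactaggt

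Each of the 8 genes has 1 coding exon in RefSeq, and none overlaps another RefSeq gene. In R64 coordinates DHH1 spans 170410 to 171930 of chromosome IV, DED1 722911 to 724725 of XV, DBP1 324411 to 326264 of XVI and SUB2 305237 to 306577 of IV. DBP5 spans 414459 to 415907 of XV, FAL1 486804 to 488003 of IV, TIF1 554987 to 556174 of XI and TIF2 153504 to 154691 of X. Of the aligned residues of the encoded proteins, all were identical between Tif1 and Tif2, 74.7% between Ded1 and Dbp1 and 56.8% between Fal1 and either copy of eIF4A. The lowest identity of any pair was 32.1%, between Sub2 and Dbp5.

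The coding sequences of TIF1 and TIF2 differ at 6 of 1188 positions (99.5% identical), which limits how reads can be assigned to either copy. The 60 bases from coding position 169 hold 2 of the differences, marked in capitals.
TIF1, chrXI:555155-555214, plus strand: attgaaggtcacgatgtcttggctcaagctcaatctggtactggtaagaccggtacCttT
TIF2, chrX:154464-154523, minus strand: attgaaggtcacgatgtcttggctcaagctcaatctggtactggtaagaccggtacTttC
Of the 1161 windows of 28 bases in each copy, 1055 (90.9%) occur elsewhere in the genome, and for the other 6 genes the share was 0. Only uniquely mapped reads were counted, so the levels of TIF1 and TIF2, and the ratio of their Ribo-Seq to RNA-Seq levels, are uncertain.

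Libraries held 2217490 to 3896827 gene counts in RNA-Seq and 540986 to 3123180 in Ribo-Seq. The deleted genes were near 0: GIR2 had 1 to 16 counts in gir2Δ RNA-Seq and 0 to 4 in gir2Δ Ribo-Seq, and PUB1 had 1 to 47 in pub1Δ RNA-Seq and 1 to 20 in pub1Δ Ribo-Seq. One pub1Δ RNA-Seq library, replicate 1, carries a genotype label that names gir2::KanMX, but it held 894 counts of GIR2 and 1 of PUB1 and was kept with pub1Δ. The 4 markers of MATalpha cells summed to at least 2022 CPM (counts scaled to a common library size) in every library, and the 6 markers of the other mating type to at most 10.5. The labels name 4 batches: gir2Δ replicates 1 to 3 were all of batch 2 and pub1Δ replicates 1 to 3 of batch 3, so with batch in the model the gir2Δ estimates rest on replicate 4 (batch 1) and the pub1Δ estimates on RNA-Seq replicates 4 (batch 4) and 5 (batch 1) and Ribo-Seq replicate 4 (batch 1). No source says that replicates came from separate cultures of a strain, so p-values measure the spread between these samples, which may be technical.

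Among wt footprints, SUB2, DED1 and DHH1 were the highest of the 8 and DBP1 the lowest. Levels between genes were compared as CPM scaled with TMM factors per kilobase of coding length. SUB2 averaged 903 ± 35.2 in wt Ribo-Seq (SD, n = 4), DED1 778 ± 9.97 and DHH1 292 ± 23.8. DBP5 came next with 241 ± 6.03, then TIF2 with 185 ± 1.14 and TIF1 with 165 ± 7.52. FAL1 was at 22.8 ± 11.5 and DBP1 at 7.11 ± 1.49, and the ranges of neighbours in this order did not overlap. In these bulk libraries, fewer cells that express a gene and less RNA per cell cannot be told apart.

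In wt mRNA the order was different, with DED1 and DHH1 among the lower members. SUB2 averaged 761 ± 63.0 normalised CPM per kilobase in wt RNA-Seq (SD, n = 5), followed by TIF1 with 368 ± 71.3 and TIF2 with 328 ± 66.8, whose ranges overlapped. DBP5 followed with 179 ± 30.4 and DED1 with 69.2 ± 14.9. FAL1 with 35.9 ± 7.03 and DHH1 with 35.9 ± 5.20 overlapped too, and DBP1 was at 3.99 ± 0.375. The median of 4461 genes ranked was 57.0, so DHH1, FAL1 and DBP1 lay below the median transcript. Among these genes DED1 ranked 258th from the top in footprints and 1948th in mRNA, and DHH1 ranked 527th in footprints and 3061st in mRNA. SUB2 ranked 242nd in both assays.

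**Figure D1:**
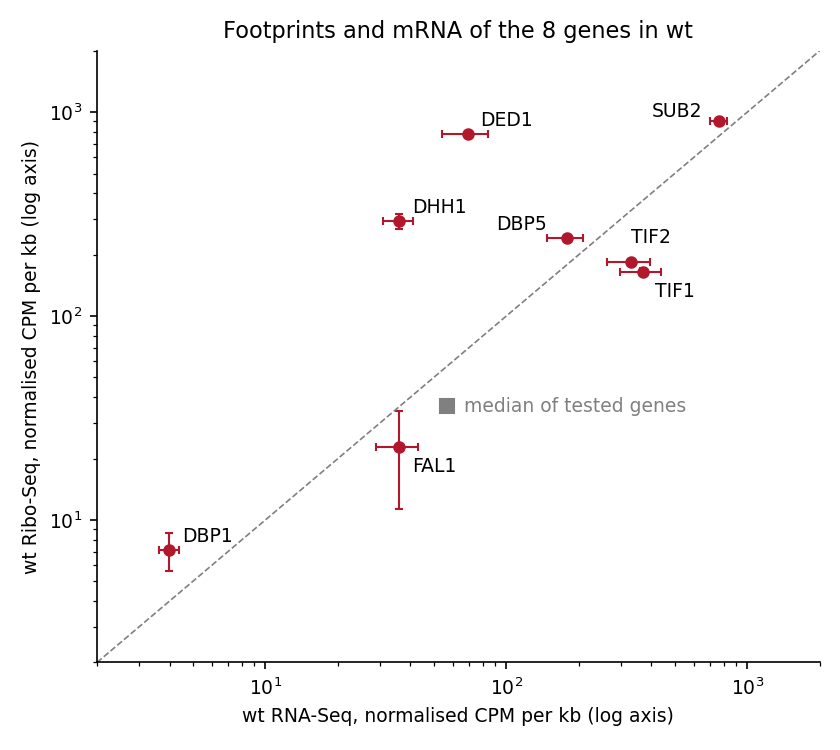
Mean wt level of the 8 genes in Ribo-Seq (vertical) and RNA-Seq (horizontal), both in normalised CPM per kilobase on log axes, with SD bars over 4 and 5 libraries, the line of equal values and the median of the ranked genes as a grey square. DED1 (778 in footprints, 69.2 in mRNA) and DHH1 (292 and 35.9) lie far above the line, while TIF1 and TIF2 lie below it. The positions of TIF1 and TIF2 are uncertain, since only uniquely mapped reads were counted.

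The share of each gene in footprints relative to its share in mRNA was compared within wt. The wt libraries enter the occupancy shift by which DHH1 and DED1 were chosen, so the values of these 2 genes are given here without a test. DED1 had 1408, 1409.8, 1394 and 1438 normalised CPM in wt Ribo-Seq, against 116, 150.4, 150.1, 126 and 85.3 in wt RNA-Seq. DHH1 had 445, 434, 406 and 493 normalised CPM in wt Ribo-Seq, against 51.1, 67.6, 56.2, 50.8 and 47.4 in wt RNA-Seq. In both genes every footprint library was far above every mRNA library. By the quasi-likelihood test of edgeR, adjusted after Benjamini-Hochberg over 4473 genes, 4 of the 5 other helicase genes that passed the filter were called at an adjusted p under 0.05, of which 2 were higher in Ribo-Seq and 2 lower. The 2 lower were TIF1 and TIF2, whose ratios are uncertain because the copies share most of their sequence. Of all genes tested, 64.5% were called, 29.2% higher and 35.3% lower, so a call by itself was common in this contrast.

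DED1 and DHH1 had the largest log2 differences among the members. DED1 stood at 4.01 (SE 0.119), which ranked 7th of the 4473 genes, and DHH1 at 3.55 (SE 0.104), which ranked 8th. The genes ranked above them were noncoding RNAs of the mitochondrial ribosome, the signal recognition particle and the nucleolus (15S_RRNA, 21S_RRNA, SCR1, snR4 and snR30) and SRO9, so among the protein-coding genes SRO9, an RNA-binding protein with a La motif, came first with 4.17. DBP5 was higher by 0.94 (SE 0.0823, edgeR adjusted p 7.06e-07) and SUB2 by 0.76 (SE 0.0693, edgeR adjusted p 9.65e-07). TIF1 was lower, at -0.64 (SE 0.0995, edgeR adjusted p 0.0001), and TIF2 at -0.31 (SE 0.0955, edgeR adjusted p 0.0124). These 2 ratios are uncertain, since only uniquely mapped reads were counted and 90.9% of the 28-base windows of each copy occur elsewhere. FAL1 was at -0.20 (SE 0.214, edgeR adjusted p 0.441) and was not called. The median of all genes was -0.085.

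Leaving out 1 wt library at a time kept DED1 between 3.92 and 4.06 and DHH1 between 3.49 and 3.62. FAL1 was called when wt Ribo-Seq replicate 3 was left out, at -0.54 (edgeR adjusted p 0.0112). TIF2 was not called in batch 1 alone, at -0.11 (edgeR adjusted p 0.338), or without the filter, at -0.21 (edgeR adjusted p 0.104). Scaling the 2 assays together moved all genes up by 0.51. With factors computed within each assay the median of all genes was -0.60 and the calls were 496 higher and 2873 lower, against 1304 and 1581, and DED1 stood at 3.49 and DHH1 at 3.03. DBP5 at 0.42, SUB2 at 0.24, TIF1 at -1.16 and TIF2 at -0.83 were all called in the same direction with these factors, while FAL1 at -0.72 was also called (edgeR adjusted p 0.00746).

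Other genes that act with these helicases were followed through 4 lists. Of the 10 genes of the cap-binding complex and of translation repressors, 9 were higher in wt Ribo-Seq than in wt RNA-Seq by the same edgeR test and 0 were lower, where 29.2% of all genes were higher and 35.3% lower. The list median was 1.23 on the log2 scale, against -0.085 for all genes, and 0.71 against -0.60 with factors within each assay, where 8 were higher, 1 was lower (496 and 2873 of all 4473 genes) and no called gene of the list changed sign. NPL3, a shuttling RNA-binding protein that represses initiation, stood at 2.79, PAB1, the poly(A)-binding protein, at 1.82, the eIF4E-binding repressors CAF20 at 1.52 and EAP1 at 1.39, and the scaffolds TIF4632 and TIF4631 (eIF4G) at 1.26 and 1.197. SCD6, a repressor that binds eIF4G, was at 0.99, TIF3 (eIF4B) at 0.79 and CDC33 (eIF4E) at 0.55.

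In the list of decapping and deadenylation, in which Dhh1 acts, 14 of 23 genes were higher in wt Ribo-Seq and 3 lower (29.2% and 35.3% of all genes), with a median of 0.51, though LSM6, POP2 and CAF40 changed sign with factors within each assay. The largest values were those of CCR4 (1.51), a deadenylase, MOT2 (1.21), a ubiquitin ligase of the same complex, and XRN1 (1.13), the exonuclease that degrades decapped mRNA. PAT1 and CDC39, both at 0.98, EDC2 (0.86), LSM4 (0.79), EDC1 (0.69), LSM7 (0.67), NOT5 (0.60), NOT3 (0.57), POP2 (0.51), CAF40 (0.45) and LSM6 (0.40) were the others. CAF130 (-1.003), LSM1 (-0.47) and DCP1 (-0.31) were lower. With factors within each assay the counts were 5 higher and 9 lower, where 496 and 2873 of all 4473 genes were.

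In the list of mRNA export, where Sub2 and Dbp5 act, 8 of 15 genes were higher in wt Ribo-Seq and 3 lower (29.2% and 35.3% of all genes). The list median was 0.51, against -0.085 for all genes, though YRA1 changed sign with factors within each assay. NAB2, a nuclear poly(A)-binding protein, stood at 1.31, the exportin CRM1 at 1.24, the THO subunit THO2 at 0.98, the nucleoporins NUP42 at 0.79 and NUP159 at 0.71, the export receptor MEX67 at 0.70, and the adaptors YRA2 at 0.56 and YRA1 at 0.51. GLE1, the activator of Dbp5, was lower at -1.40, as were MFT1 at -1.12 and GFD1 at -0.83. With factors within each assay 4 were higher and 6 lower, where 496 and 2873 of all 4473 genes were. The list median was then -0.013, against -0.60 for all genes.

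Of 18 other DEAD-box genes, 17 were matched and tested, and 8 were higher in wt Ribo-Seq and 3 lower (29.2% and 35.3% of all genes), with a median of 0.19. With factors within each assay DBP3, DBP8 and ROK1 changed sign, and 3 were higher and 9 lower, where 496 and 2873 of all 4473 genes were. HAS1, which acts in ribosome assembly, was at 1.11 and DBP2, which acts on nascent RNA, at 1.08, followed by DBP6 (0.81), PRP28 (0.69), RRP3 (0.56), ROK1 (0.48), DBP8 (0.47) and DBP3 (0.25). The splicing helicase PRP5 was at -1.78, SPB4 at -0.48 and the mitochondrial MSS116 at -0.39. The highest of these values, 1.11, was below those of DHH1 and DED1.

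DHH1 mRNA was lower in every gir2Δ library than in wt, while its footprints overlapped wt. DHH1 had 33.8, 29.3 and 30.6 normalised CPM in gir2Δ RNA-Seq replicates 1 to 3 and 18.4 in replicate 4, against 51.1, 67.6, 56.2, 50.8 and 47.4 in wt. No library of gir2Δ reached the wt range, which held for 3.11% of all genes tested, and DED1 and DBP1 were the other members that did so. DBP1 did not pass the filter and had 13 to 21 counts in these gir2Δ libraries. In Ribo-Seq DHH1 had 407, 413, 415 and 432 normalised CPM in gir2Δ, against 445, 434, 406 and 493 in wt, and the groups overlapped.

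In pub1Δ, DHH1 mRNA differed between batches. It had 18.0, 21.2 and 25.95 normalised CPM in pub1Δ replicates 1 to 3 (batch 3), 71.6 in replicate 4 (batch 4) and 32.99 in replicate 5 (batch 1), against 47.4 to 67.6 in wt. Replicate 4 was thus above every wt library and the other 4 below every wt library. In Ribo-Seq DHH1 had 273, 259, 263 and 302 normalised CPM in pub1Δ, against 406 to 493 in wt, so that all pub1Δ libraries were below all wt libraries, a pattern of 2.37% of all genes. DED1 was the other member with this pattern.

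DED1 showed a like layout. It had 57.0, 49.5, 62.1 and 46.9 normalised CPM in gir2Δ RNA-Seq, against 116, 150.4, 150.1, 126 and 85.3 in wt, and no value of gir2Δ reached the lowest of wt. In pub1Δ RNA-Seq it had 28.4, 36.7 and 53.1 in batch 3, 143 in replicate 4 (batch 4) and 78.7 in replicate 5 (batch 1). Replicate 4 was within the wt range and the others below it. In Ribo-Seq DED1 had 1419, 1413, 1679.8 and 1609 normalised CPM in gir2Δ, against 1408, 1409.8, 1394 and 1438 in wt, with 2 gir2Δ libraries above the wt range. It had 1152, 1145, 1108 and 1226 in pub1Δ, all below wt.

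**Figure D2:**
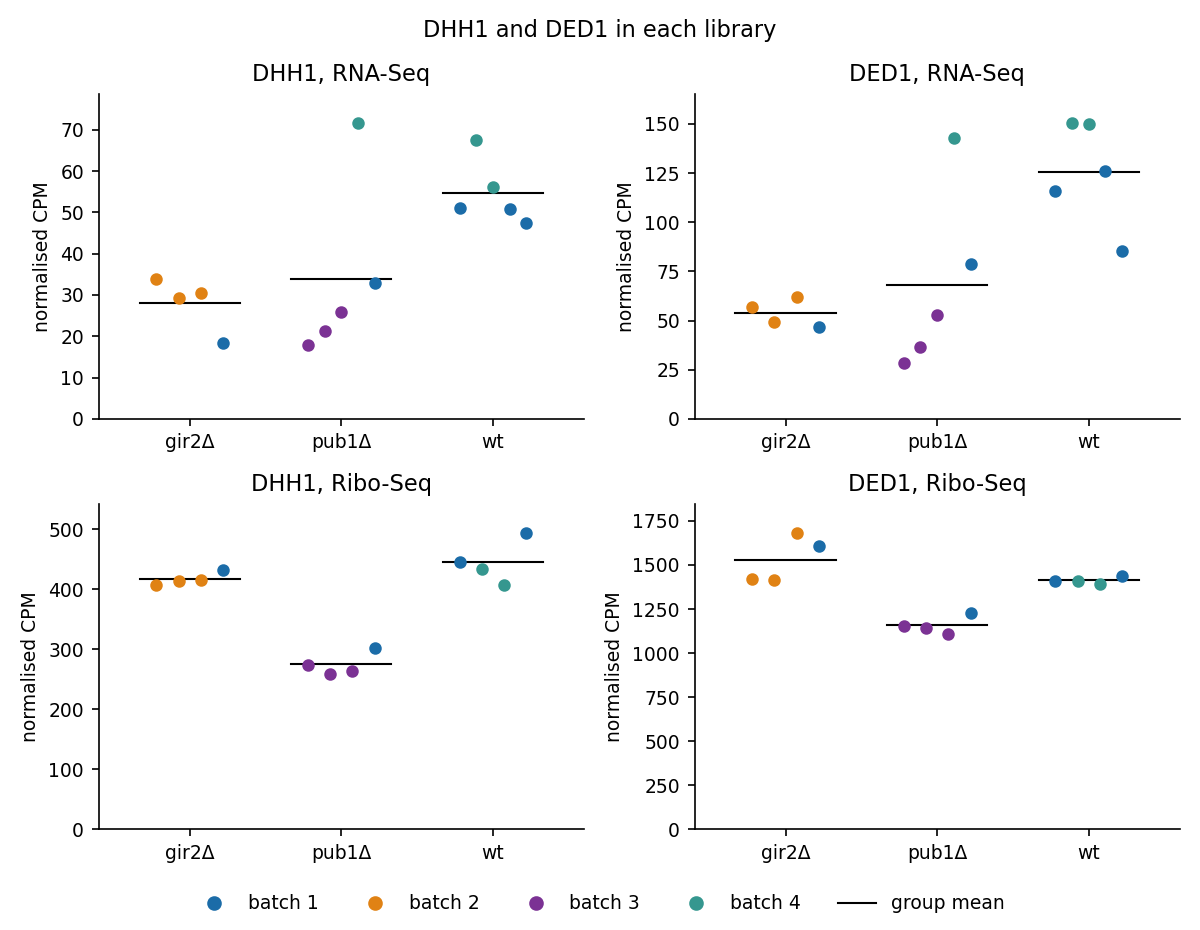
Normalised CPM of DHH1 (left) and DED1 (right) in each RNA-Seq (top) and Ribo-Seq (bottom) library of gir2Δ, pub1Δ and wt, coloured by batch, with a line at the group mean. In RNA-Seq all gir2Δ points lie below all wt points, and the pub1Δ point of batch 4 (71.6 for DHH1, 143 for DED1) stands apart from the other pub1Δ points.

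Over the 14 RNA-Seq libraries the highest value was 3.98 times the lowest for DHH1 and 5.30 times for DED1, against 1.24 to 2.03 times for the other members tested. Over the 12 Ribo-Seq libraries it was 1.904 times for DHH1, 1.52 times for DED1 and 2.38 times for FAL1. The SD of log2 CPM over the RNA-Seq libraries was 0.654 for DHH1 and 0.785 for DED1, and 0.236 for the median gene.

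The fitted changes, with batch in the model, rested on replicate 4 in gir2Δ. They stood at -1.34 (SE 0.257) for DHH1 and -1.16 (SE 0.264) for DED1 in gir2Δ RNA-Seq over wt, 9th and 13th lowest of 4473 genes. In gir2Δ Ribo-Seq they were -0.12 (SE 0.117) and 0.18 (SE 0.107). Ribosome occupancy, that is, how far footprints moved relative to mRNA, was 1.24 (SE 0.275) for DHH1 and 1.36 (SE 0.306) for DED1, 18th and 10th highest. These values served to select the 2 genes. Without a batch term the gir2Δ RNA-Seq change of DHH1 was -0.96 and its occupancy change 0.78, a smaller difference with the same sign.

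For pub1Δ the fitted values depended on single libraries. In RNA-Seq DHH1 was at -0.17 (SE 0.167) and DED1 at -0.27 (SE 0.179). Without pub1Δ RNA-Seq replicate 4 they were -0.59 and -0.46, and without replicate 5 they were 0.21 and -0.076. In Ribo-Seq DHH1 was at -0.63 (SE 0.117), 101st lowest of all genes, and DED1 at -0.21 (SE 0.108). Occupancy was -0.44 (SE 0.217) for DHH1 and 0.08 (SE 0.254) for DED1. It was -0.0050 and 0.29 without replicate 4, and -0.83 and -0.13 without replicate 5. Leaving out replicate 1, the library with the conflicting genotype label, left both at -0.44 and 0.08. The batch of that library held only pub1Δ, so with batch in the model these values could hardly move. This fit therefore cannot decide whether the label matters. Without a batch term the occupancy of DHH1 was 0.038 and that of DED1 0.64, so the sign for DHH1 in pub1Δ depended on how batch was treated.

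Occupancy was also taken within each pair of libraries, as normalised Ribo-Seq CPM over normalised RNA-Seq CPM (0.5 added to each) of the libraries that share strain, number and batch, since the labelled protocol splits a lysate between the assays. DHH1 had 11.9, 13.9, 13.4 and 23.0 in gir2Δ pairs, against 8.62, 6.38, 7.18 and 9.62 in wt, and DED1 had 24.7, 28.3, 26.8 and 33.9, against 12.1, 9.34, 9.26 and 11.4. Every gir2Δ pair was above every wt pair in both genes, as in 5.68% of all genes tested. In the 3 pub1Δ pairs, all of batch 3, DHH1 had 14.8, 12.0 and 9.96 and DED1 39.9, 30.8 and 20.7. All were above wt, as in 8.94% of all genes tested. DBP1, with 2.58, 6.94 and 5.18 against 1.37 to 2.28 in wt, was the third member that was. Its pub1Δ ratios rest on 11, 5 and 5 RNA-Seq counts and 6, 19 and 7 Ribo-Seq counts. They are uncertain, and DBP1 was not among the genes tested.

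The pub1Δ libraries of batch 1 carry different numbers in the 2 assays, so they were not treated as a pair. Combined, they gave 9.04 for DHH1, within the wt range, 15.5 for DED1, above it, and 1.73 for DBP1, within it. The batch of the pub1Δ pairs and the deletion cannot be told apart in the others.

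**Figure D3:**
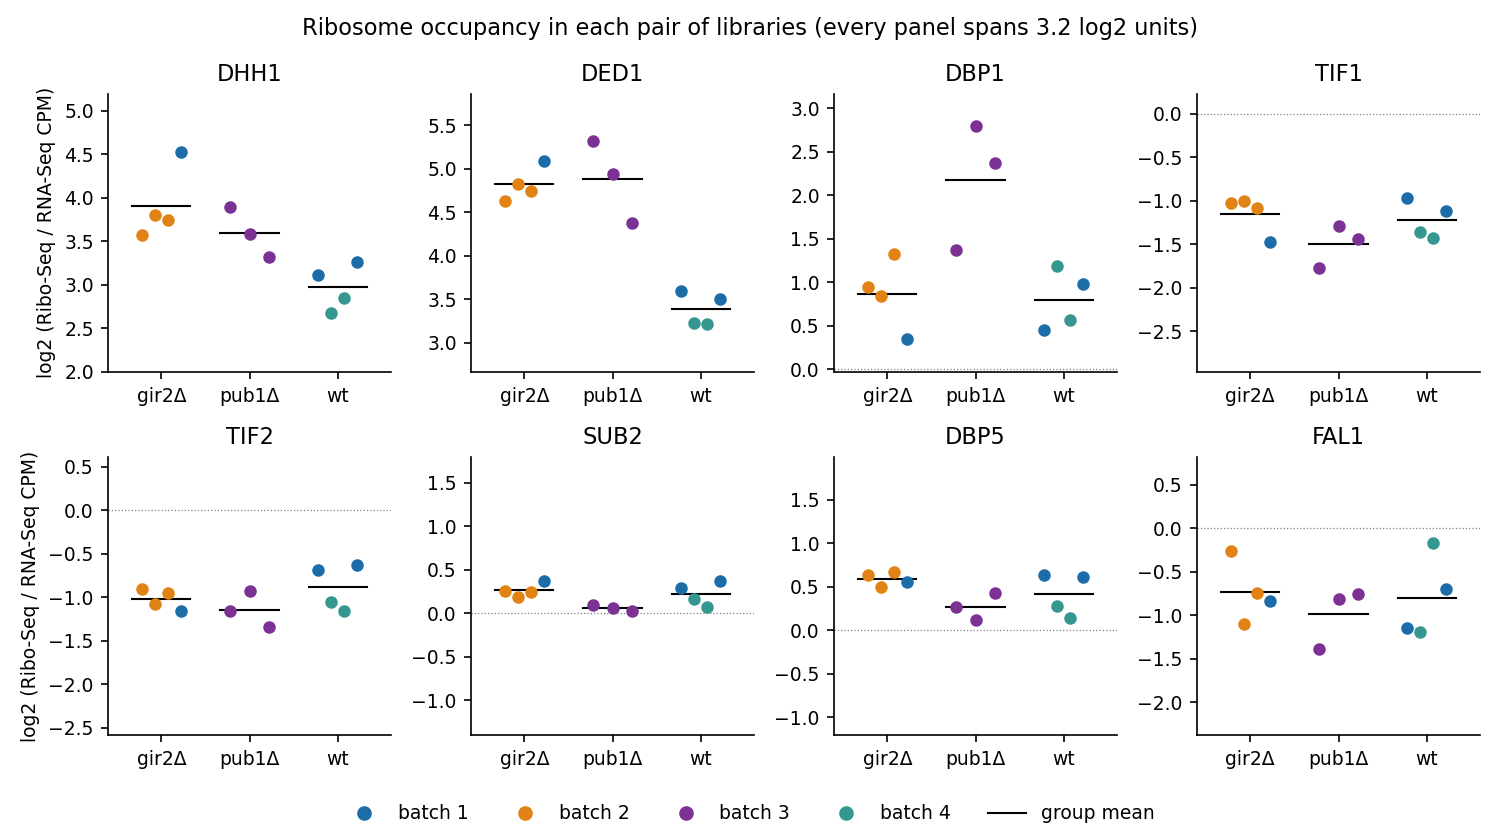
Ribosome occupancy of each gene in each pair of libraries as log2 of Ribo-Seq over RNA-Seq normalised CPM (0.5 added to both), for gir2Δ, pub1Δ and wt, coloured by batch, with a line at the group mean and a dotted line at 0. The panels cover different ranges of the same width. DHH1 and DED1 of all gir2Δ pairs lie above all wt pairs, whereas SUB2, DBP5, TIF1, TIF2 and FAL1 overlap wt.

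DBP1, the paralog of DED1, was expressed at a low level and did not pass the filter of 10 CPM in 4 or more libraries of each assay. It had 5 to 25 counts per RNA-Seq library and 6 to 48 per Ribo-Seq library. In RNA-Seq it had 4.95, 4.70, 4.70 and 6.12 normalised CPM in gir2Δ, against 8.16, 6.59, 6.74, 7.56 and 7.90 in wt, without overlap. The counts beneath these values, 13 to 21 in gir2Δ and 15 to 25 in wt, did overlap. Such a separation held for 3.11% of the genes tested, which did not include DBP1. In pub1Δ it had 3.09, 2.35, 1.97, 6.30 and 8.34, with the 2 highest values in replicates 4 and 5, as for DHH1 and DED1. In Ribo-Seq it averaged 9.82 ± 2.02 normalised CPM in gir2Δ, 13.8 ± 4.42 in pub1Δ and 13.2 ± 2.77 in wt, each with its SD over 4 libraries.

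When the filter was removed, DBP1 was called by edgeR in 0 of 6 strain comparisons with a lowest unadjusted p of 0.124, and its RNA-Seq changes were -0.38 in gir2Δ and 0.0041 in pub1Δ, and its Ribo-Seq changes -0.74 in gir2Δ and 0.17 in pub1Δ. Within wt it was higher in Ribo-Seq than in RNA-Seq by 1.44 (edgeR adjusted p 2.4e-05), less than DED1. Part of the RNA-Seq reads over DBP1 lay on the antisense strand, 38.5% in gir2Δ (exact Clopper-Pearson 95% interval 29.1 to 48.5%), 23.1% in pub1Δ (14.3 to 34.0%) and 27.3% in wt (19.8 to 35.9%), which covers counting error alone. The counts used were those of the sense strand. Antisense reads were 4.83% to 5.50% for FAL1 in RNA-Seq and under 1% for the other members.

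The eIF4A genes TIF1 and TIF2 had like levels of mRNA, within the limits of assigning reads to either copy. TIF1 had 429.8, 421, 388 and 448 normalised CPM in gir2Δ RNA-Seq, against 391, 489, 555, 407 and 341 in wt, and TIF2 had 382, 412, 397 and 427 against 355, 453, 493, 339.6 and 308. In pub1Δ RNA-Seq TIF1 had 609.7, 508 and 473 in batch 3, 429.7 in replicate 4 and 404 in replicate 5, and TIF2 had 626, 517, 472, 397 and 332 in the same libraries. All these ranges overlapped wt, and pub1Δ replicate 1, which had the highest level of both copies, had the lowest of DHH1 and of DED1. In Ribo-Seq TIF1 had 211, 209, 182 and 161 normalised CPM in gir2Δ, 178, 208, 174 and 179 in pub1Δ and 199.9, 191, 206 and 186 in wt.

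TIF2 footprints had the narrowest spread of any member in wt, with 220.5, 218, 221 and 218 normalised CPM. In gir2Δ they were 203, 195, 204 and 191, all below wt, as in 3.73% of all genes tested. They were 281, 270.0, 186 and 224 in pub1Δ, on both sides of wt. The fitted change of TIF2 in gir2Δ was 0.33 in RNA-Seq (SE 0.146, edgeR adjusted p 0.317) and -0.20 in Ribo-Seq (SE 0.173, edgeR adjusted p 0.804). Its occupancy change was -0.50 (SE 0.245, edgeR adjusted p 0.656) and that of TIF1 -0.44 (SE 0.237, edgeR adjusted p 0.689), opposite in sign to those of DHH1 and DED1. Neither passed the threshold. Both fits rest on gir2Δ replicate 4. By pairs of libraries, TIF1 occupancy was 0.49, 0.50, 0.47 and 0.36 in gir2Δ replicates 1 to 4, against 0.51, 0.39, 0.37 and 0.46 in wt. Only replicate 4 was below the wt range.

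SUB2 was the steadiest member. Its mean normalised CPM and SD in RNA-Seq were 993 ± 19.2 over 4 gir2Δ libraries, 1064 ± 90.6 over 5 of pub1Δ and 1021 ± 84.5 over 5 of wt. In Ribo-Seq they were 1193 ± 45.5 for gir2Δ, 1152 ± 52.9 for pub1Δ and 1210.4 ± 47.2 for wt, over 4 libraries each. Its fitted changes lay between -0.16 (SE 0.0960, pub1Δ Ribo-Seq) and 0.04 (SE 0.150, gir2Δ occupancy) over the 6 strain comparisons.

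DBP5 had a mean and SD of 249 ± 15.7 normalised CPM over the 4 gir2Δ RNA-Seq libraries, 288 ± 46.9 over the 5 of pub1Δ and 259 ± 44.0 over the 5 of wt. Its footprints averaged 374 ± 16.3 for gir2Δ, 382 ± 21.5 for pub1Δ and 349 ± 8.73 for wt over 4 libraries each. In Ribo-Seq 3 of 4 gir2Δ and 3 of 4 pub1Δ libraries were above the wt range. The share of all genes with such counts was not taken. The fitted Ribo-Seq changes were 0.07 in gir2Δ (SE 0.122, edgeR adjusted p 0.920) and 0.15 in pub1Δ (SE 0.117, edgeR adjusted p 0.827). DBP5 was called in neither. Its largest fitted change was 0.28 in pub1Δ occupancy (SE 0.154, edgeR adjusted p 1.00).

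FAL1 mRNA had 49.9, 55.6, 46.7 and 58.0 normalised CPM in gir2Δ, 62.1, 48.5, 59.4, 47.2 and 37.3 in pub1Δ, and 46.0, 46.6, 53.9, 34.0 and 35.1 in wt. In gir2Δ 2 of 4 libraries were above the wt range, for which no share over all genes was taken. The fitted gir2Δ RNA-Seq change was 0.60 (SE 0.180, edgeR adjusted p 0.208, unadjusted p 0.00400), which was 33rd highest of all genes. That fit rests on gir2Δ replicate 4. Over 8 other settings FAL1 ranged from 0.22 to 0.60. In Ribo-Seq it had 41.5, 25.8, 27.7 and 32.3 normalised CPM in gir2Δ, 23.4, 27.4, 35.1 and 21.0 in pub1Δ and 20.6, 20.2, 48.0 and 20.8 in wt, from 16 to 79 counts per library. The highest footprint value was that of wt replicate 3.

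Across the strain comparisons none of the 5 helicase genes tested was called. DHH1 and DED1 were not tested, and DBP1 did not pass the filter. With edgeR and Benjamini-Hochberg adjustment, 0 of the 5 members that were tested (TIF1, TIF2, SUB2, DBP5 and FAL1) passed the threshold in gir2Δ RNA-Seq, where 0.0671% of all genes did, and 2 of 5 (TIF2 and FAL1) had an unadjusted p under 0.05, as did 14% of all genes. In pub1Δ RNA-Seq (0.0447% of all genes), gir2Δ Ribo-Seq (0.0224%), pub1Δ Ribo-Seq (0.134%), gir2Δ occupancy (0%) and pub1Δ occupancy (0%), 0 of 5 were called and 0 had an unadjusted p under 0.05, as did 9.39%, 8.43%, 7.91%, 7.6% and 3.76% of all genes in that order. DESeq2 also called 0 of 5 in each. ComBat-seq was given the strains, and the fit after it had no batch term. Batch 2 held only gir2Δ and batch 3 only pub1Δ, so its estimates still rest on gir2Δ replicate 4 and the pub1Δ libraries of other batches. That fit counted every corrected library as independent, so its p-values can be too small. After batch correction with ComBat-seq, many of the 4473 genes passed. In gir2Δ RNA-Seq 1516 were called in place of 3, among them TIF2 (0.33, edgeR adjusted p 0.0039) and FAL1 (0.59, edgeR adjusted p 0.00018). In gir2Δ Ribo-Seq 1138 were, with TIF1 (-0.24, edgeR adjusted p 0.0204) and FAL1 (0.66, edgeR adjusted p 0.0156). In gir2Δ occupancy 1013 were, with TIF1 (-0.44, edgeR adjusted p 0.0096) and TIF2 (-0.50, edgeR adjusted p 0.0028). In pub1Δ Ribo-Seq 547 were, with SUB2 (-0.15, edgeR adjusted p 0.0478). With the pairs as a block, edgeR called 11 genes in gir2Δ occupancy in place of 0, and no member among the 5.

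**Figure D4:**
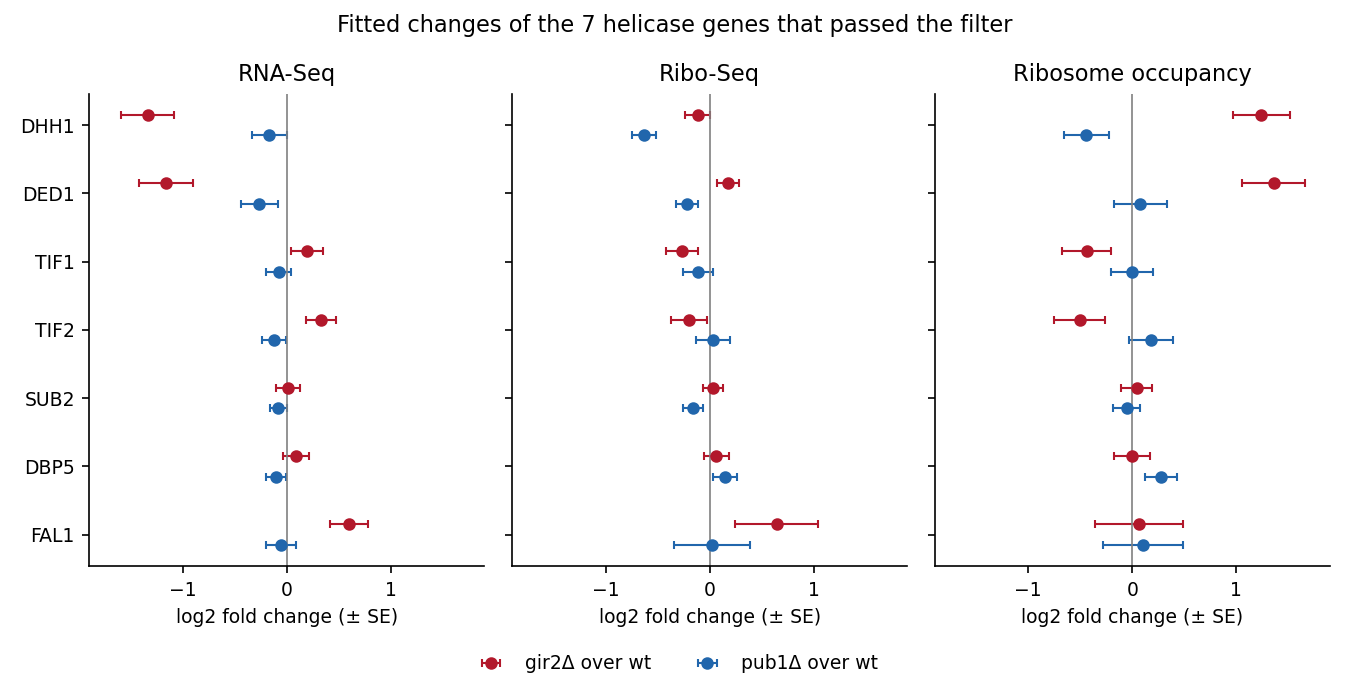
Fitted log2 fold change with its SE for the 7 helicase genes that passed the filter, gir2Δ over wt (red) and pub1Δ over wt (blue), in RNA-Seq, Ribo-Seq and ribosome occupancy. In gir2Δ DHH1 and DED1 are at -1.34 and -1.16 in RNA-Seq and at 1.24 and 1.36 in occupancy, and both strains were set against the same wt libraries.

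The 4 lists gave no call in the strain comparisons either. In gir2Δ RNA-Seq 0 of 17 other DEAD-box genes, 0 of 10 genes of the cap-binding list, 0 of 23 of the decapping list and 0 of 15 of the export list were called by edgeR, with 3, 3, 6 and 4 genes at an unadjusted p under 0.05, beside 14% of all genes, and DESeq2 called 0. The list medians were 0.11, -0.23, 0.03 and -0.15 in the same order, beside -0.0027 for all genes. In gir2Δ occupancy the medians were 0.17, 0.25, -0.09 and 0.26, beside -0.0020, with 0 called by edgeR, 0, 2, 5 and 1 genes at an unadjusted p under 0.05 (7.6% of all genes) and 0 called by DESeq2. In gir2Δ Ribo-Seq 0 were called by either tool, with 6, 2, 2 and 1 at an unadjusted p under 0.05 (8.43% of all genes).

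In pub1Δ RNA-Seq 0 genes of the lists were called by edgeR or DESeq2, with 2, 2, 4 and 2 at an unadjusted p under 0.05 (9.39% of all genes). The cap-binding list had a median of -0.13, beside -0.00089 for all genes. In pub1Δ Ribo-Seq (0, 1, 1 and 0 genes at an unadjusted p under 0.05, against 7.91% of all genes) and pub1Δ occupancy (0, 1, 1 and 0, against 3.76%) both tools called 0. PAB1, the highest of the cap-binding list in wt footprints, had a mean and SD of 753 ± 80.2 normalised CPM for gir2Δ in RNA-Seq, 797 ± 193 for pub1Δ and 1016 ± 179 for wt. Its footprints averaged 2781 ± 110.3 for gir2Δ, 2045 ± 59.8 for pub1Δ and 2491 ± 203 for wt. XRN1, the highest of the decapping list, averaged 391 ± 8.19 in gir2Δ RNA-Seq, 329 ± 41.3 in pub1Δ and 412 ± 19.7 in wt.

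The second gene of the cap-binding list by wt footprints, TIF3, averaged 1059.6 ± 60.3 normalised CPM in gir2Δ Ribo-Seq, 798 ± 72.1 in pub1Δ and 929.6 ± 47.3 in wt, with its SD over 4 libraries of each strain. DBP2 and HAS1 led the other DEAD-box genes with 869 ± 125 and 377 ± 53.8 in gir2Δ, 728 ± 129 and 349 ± 54.7 in pub1Δ and 782 ± 208 and 355 ± 62.3 in wt Ribo-Seq. CDC39, the scaffold of the deadenylase complex, averaged 209 ± 6.90 in gir2Δ Ribo-Seq, 252 ± 32.6 in pub1Δ and 247 ± 39.3 in wt, and in the export list YRA1 averaged 459 ± 29.3, 425 ± 32.3 and 459.7 ± 43.9 and CRM1 318 ± 5.16, 374 ± 52.6 and 367 ± 49.1 in the same order of strains. None of these was called in a strain comparison.

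Because the wt libraries carry the labels of batches 1 and 4, the difference between batches could be measured in the helicase genes without a deletion. The wt libraries enter the shift by which DHH1 and DED1 were chosen, so these 2 are given here without a test. Of the 5 other members tested, TIF1, TIF2 and DBP5 were called by edgeR in wt RNA-Seq of batch 4 over batch 1, all higher. Of all genes 30.3% were called, 10.2% higher and 20.1% lower, over 2 libraries of batch 4 and 3 of batch 1. TIF2 had 453 and 493 normalised CPM in batch 4, against 355, 339.6 and 308 in batch 1, a change of 0.45 (SE 0.112, edgeR adjusted p 0.00547). TIF1 changed by 0.41 (SE 0.118, edgeR adjusted p 0.0148) and DBP5 by 0.37 (SE 0.106, edgeR adjusted p 0.0138). FAL1 (0.34, edgeR adjusted p 0.147) and SUB2 (0.14, edgeR adjusted p 0.395) were not called. As a description, DED1 changed by 0.42 (SE 0.144) and DHH1 by 0.27 (SE 0.142).

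The calls of TIF1, TIF2 and DBP5 between the wt batches each rested on single libraries. Without wt replicate 3, which leaves 1 library of batch 4, TIF2 (0.38), TIF1 (0.30) and DBP5 (0.31) were not called. Without replicate 1, TIF1 (0.43, edgeR adjusted p 0.0540) and DBP5 (0.36, edgeR adjusted p 0.0750) were not called. Without replicate 5 the same held for TIF1 (0.35, edgeR adjusted p 0.0638). DESeq2 also called TIF1, TIF2 and DBP5. The change of DED1 ranged from 0.27 to 0.57 with 1 wt library left out.

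In wt Ribo-Seq 0 of the 5 members tested were called by edgeR between batches 4 and 1, where 31.1% of all genes were (11.2% higher and 20% lower). Of the 5, 1 had an unadjusted p under 0.05, as did 41% of all genes, and DESeq2 called 0. Each batch had 2 libraries here. That gene was FAL1, at 0.76 (SE 0.331, edgeR adjusted p 0.109), which was at -0.054 without wt replicate 3, was called at 1.24 without wt replicate 2 (edgeR adjusted p 2.769e-06) and was called without the filter (edgeR adjusted p 0.00994). DED1 was at -0.02 (SE 0.0628) and SUB2 at -0.04 (SE 0.0669). Some of the 17 other DEAD-box genes were called between the wt batches. In RNA-Seq, where 10.2% of all genes were called higher and 20.1% lower, 8 of them were higher in batch 4 (DBP2 by 0.95, MAK5 0.57, HAS1 0.56, DBP8 0.55, DBP3 0.48, DBP7 0.45, DBP9 0.39 and DRS1 0.37). The mitochondrial helicase MSS116 was lower, at -0.87. In Ribo-Seq 6 were higher (DBP2 and DBP9 by 0.53, DBP8 0.49, DRS1 0.45, HAS1 0.44 and DBP3 0.43), and MSS116 (-1.98) and the mitochondrial MRH4 (-1.002) were lower.

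Against 30.3% of all genes called in RNA-Seq and 31.1% in Ribo-Seq, 5 of 10 genes of the cap-binding list were higher in wt RNA-Seq of batch 4, CAF20 by 1.29, NPL3 by 0.97, CDC33 by 0.66, TIF3 by 0.47 and PAB1 by 0.39, while in wt Ribo-Seq CDC33 was higher by 0.25 and NPL3 was lower at -0.37. Of the 23 genes of the decapping list, NOT5 (0.43) and PAT1 (0.37) were higher and CAF130 (-0.55) lower in RNA-Seq, and CDC39 (0.40) was higher and EDC2 (-0.70) lower in Ribo-Seq. Of the 15 genes of the export list, MEX67 (0.53), NAB2 (0.50) and MTR2 (0.41) were higher in RNA-Seq and CRM1 (0.32) in Ribo-Seq.

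The genes whose mRNA profile over the 14 RNA-Seq libraries was nearest to that of DHH1, by the root mean square difference of centred log2 CPM, were MPT5 (0.234), DED1 (0.238) and SKG3 (0.241), where the median over all genes was 0.682. For DED1 they were DHH1 (0.238), SRO9 (0.270) and SKG3 (0.325), where the median was 0.805. The libraries share batches and depth, and DHH1 and DED1 were chosen for the same shift in these libraries, so the likeness of the 2 is partly set by that choice and is given as a description. MPT5, a Pumilio-family repressor of mRNA, had 18.1 to 26.6 normalised CPM in gir2Δ RNA-Seq, 14.1 to 40.1 in pub1Δ and 35.7 to 42.4 in wt. SRO9 had 15.2 to 19.8 in gir2Δ, 8.72 to 57.8 in pub1Δ and 40.8 to 52.6 in wt, and SKG3 13.7 to 21.1, 8.999 to 34.6 and 29.0 to 40.4 in the same order.

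In footprints the nearest genes were others. Over the 12 Ribo-Seq libraries MSA1 (0.110), SCH9 (0.125) and RNQ1 (0.129) were nearest to DHH1, and DED1 was 15th with 0.183. ZEO1 (0.0771), RPS15 (0.0795) and RPS24B (0.0796) were nearest to DED1, and DHH1 was 344th. MSA1, a regulator of transcription in G1, had 37.1 to 47.0 normalised CPM in gir2Δ Ribo-Seq, 26.3 to 33.3 in pub1Δ and 41.6 to 52.7 in wt. SRO9, next to DED1 in mRNA and in the ratio of the assays, had 489 to 616 in gir2Δ Ribo-Seq, 389 to 527 in pub1Δ and 501 to 614 in wt.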

How the data were processed

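By the labelled protocol, lysates were split between the assays, with cycloheximide in the lysis buffer and not in the medium. The deposited values were raw counts per gene, made by the authors with cutadapt 2.10, removal of duplicate Ribo-Seq reads (seqkit), depletion of rRNA (Bowtie2, given as 1.2.3) and STAR 2.7.9a with the Ensembl R64-1-1 annotation, counting uniquely mapped reads. Multimapping reads made up 41.0% to 61.2% of all reads given to the aligner in Ribo-Seq and 6.23% to 12.3% in RNA-Seq. Duplicate removal applied to Ribo-Seq alone, which can lower the counts of abundant footprints, and the selection of monosome fragments and of poly(A) RNA differ between the assays.

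In R 4.3.3, genes with 10 CPM in 4 libraries of each assay (4473 of 6866 with any count) were tested with edgeR 4.0.16 (TMM factors, quasi-likelihood F-test, two-sided, Benjamini-Hochberg, called at an adjusted p under 0.05), with batch and strain as terms. Occupancy was the strain by assay term over 26 libraries. SE values belong to the fitted log2 changes. Scripts were first tested on simulated counts. Alternatives were ComBat-seq (sva 3.50.0), DESeq2 1.42.0, median-of-ratios factors, no filter, no batch term, 2 batch levels, batch 1 alone, a replicate block, levels without TMM factors and each library left out, and factors within each assay were added after the data were seen. Gene names and sequences were taken from RefSeq R64, which matched 5956 of 7036 identifiers.

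The members and lists were chosen with earlier results of these data known. All members were named, and of the lists the called genes and the 2 with the highest wt footprints, and for DHH1 and DED1 the 3 nearest genes. SRO9 and the noncoding RNAs in the ranking of assay ratios were named after their values were seen. Among the 44 pairs of libraries of 1 group none was a repeat (chi-square per degree of freedom at least 2.12). The assays were paired by strain, number and batch (11 pairs of 14 RNA-Seq and 12 Ribo-Seq libraries), and the strains were not paired. Correlations of deviations were 0.0860 to 0.784 between paired assays and -0.604 to 0.894 between strains of like number. They cannot decide the pairing, since the highest was between wt and pub1Δ Ribo-Seq replicates 4, both of batch 1. No adjusted p is given for DHH1 and DED1.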

Additional observations from a re-analysis of the deposited data

Results flagged for a closer look

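Among the 48 combinations of gene, strain and assay, 3 had 1 library far from the others by a gap test with 4 to 5 libraries, a rate near that given by chance, about 1 in 20. DHH1 in pub1Δ RNA-Seq replicate 4 had 71.6 normalised CPM, where the nearest pub1Δ library had 32.99. TIF1 in pub1Δ Ribo-Seq replicate 2 had 208.1, where the nearest had 178.9. FAL1 in wt Ribo-Seq replicate 3 had 48.0, where the nearest had 20.8.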

How the results depend on the processing

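The strain estimates rest on few libraries, and their calls moved with how batch was treated. The genes called in gir2Δ RNA-Seq numbered 3, and 1516 with ComBat-seq, 22 in batch 1 alone, 16 with DESeq2, 14 without the filter, 8 with median-of-ratios factors, 1 without a batch term and 1 with a replicate block, and from 2 to 24 with 1 library left out. In pub1Δ RNA-Seq they numbered 2, and 491 with ComBat-seq, 135 with 2 batch levels, 36 without a batch term, 11 with DESeq2, 6 with a replicate block and 5 without the filter, and from 1 to 6 with 1 library left out. In gir2Δ Ribo-Seq they numbered 1, and 1138 with ComBat-seq, 194 in batch 1 alone, 17 without the filter, 4 with 2 batch levels and 2 with DESeq2, and from 1 to 2 with 1 library left out. In pub1Δ Ribo-Seq they numbered 6, and 547 with ComBat-seq, 219 in batch 1 alone, 75 with 2 batch levels and 40 without the filter, and from 1 to 22 with 1 library left out. For gir2Δ occupancy they numbered 0, and 1013 with ComBat-seq, 11 with a replicate block, 5 in batch 1 alone, 4 with DESeq2 and 3 with 2 batch levels, and for pub1Δ occupancy 0, and 112 with ComBat-seq and 1 each with DESeq2, with 2 batch levels and without a batch term. Both ranged from 0 to 1 with 1 library left out. Between the wt batches the calls ranged from 812 to 1701 in RNA-Seq and from 829 to 1722 in Ribo-Seq. The cause of these differences was not tested.

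The sign of small changes turned in several settings. In gir2Δ RNA-Seq, TIF1, SUB2 and DBP5 were at -0.049, -0.040 and -0.056 without a batch term, and TIF1, TIF2, SUB2 and DBP5 at -0.11, -0.027, -0.075 and -0.11 with a replicate block. SUB2 was at -0.0039 with DESeq2 and -0.0042 with median-of-ratios factors. In pub1Δ RNA-Seq, TIF1, TIF2, SUB2, DBP5 and FAL1 were at 0.15, 0.27, 0.060, 0.15 and 0.25 without a batch term and at 0.15, 0.26, 0.059, 0.15 and 0.24 with a replicate block. TIF1, TIF2 and FAL1 were at 0.0035, 0.054 and 0.070 with 2 batch levels, and TIF1 at 0.096 in batch 1 alone. In gir2Δ Ribo-Seq SUB2 was at -0.020 without a batch term, -0.012 with 2 batch levels and -0.019 with a replicate block, and in pub1Δ Ribo-Seq FAL1 was at -0.15 with 2 batch levels and -0.060 without a batch term. In gir2Δ occupancy DBP5 was at 0.0042 with ComBat-seq, 0.068 without a batch term, 0.021 with DESeq2 and 0.020 with median-of-ratios factors, SUB2 at -0.061 with 2 batch levels and -0.069 without a batch term, and FAL1 at -0.15 without a batch term. In pub1Δ occupancy DHH1, TIF2 and FAL1 were at 0.038, -0.091 and -0.29 without a batch term, and DHH1 and FAL1 at 0.13 and -0.22 with 2 batch levels. DED1 between the wt batches in Ribo-Seq was at 0.0083 with DESeq2 and with median-of-ratios factors.

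With 1 library left out, the gir2Δ RNA-Seq change of SUB2 ranged from -0.044 to 0.013, its Ribo-Seq change from -0.0022 to 0.076 and its occupancy from -0.00092 to 0.090, and the gir2Δ occupancy of DBP5 from -0.028 to 0.023 and of FAL1 from -0.050 to 0.13. In pub1Δ RNA-Seq DHH1 ranged from -0.59 to 0.21 and TIF1 from -0.28 to 0.091, and in pub1Δ occupancy DED1 from -0.13 to 0.29 and TIF1 from -0.16 to 0.18. Between the wt batches in Ribo-Seq FAL1 ranged from -0.054 to 1.24, SUB2 from -0.084 to 0.0028, TIF1 from -0.040 to 0.12 and TIF2 from -0.028 to 0.036. Without pub1Δ RNA-Seq replicate 1, whose genotype label conflicts with its counts, pub1Δ RNA-Seq was -0.17 for DHH1 and -0.27 for DED1. Its batch held only pub1Δ, so with batch in the model these values could hardly move. The gir2Δ fits without gir2Δ replicate 4 of an assay, the pub1Δ Ribo-Seq and occupancy fits without Ribo-Seq replicate 4, and a replicate block for pub1Δ occupancy could not be fitted. The block over strains used numbers that the samples only share, and the block over the paired assays changed no call of a member.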
